A study of Drosophila melanogaster with 9 samples.

Results

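Chromosome 4 and the 5 mapped heterochromatin sequences of the dm3 build (2LHet, 2RHet, 3LHet, 3RHet and XHet) held 491 of the 39296 KDM5 and H3K4me3 peaks in the 6 deposited lists of this study. Every peak on these 6 sequences was taken, by sequence name alone, and no measured value entered the choice. Chromosome 4 held 257 of them and the Het sequences 234, and these are described apart. The 5 large arms (2L, 2R, 3L, 3R and X), which held 35078 peaks, serve for comparison.

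Chromatin of Drosophila melanogaster (whole adult females, 1 to 3 days old) was immunoprecipitated and sequenced (ChIP-seq). The paraquat group (2 libraries) and the control group (2 libraries) had the genotype k6801/k6801;gHA-KDM5, that is, homozygous for the k6801 allele and carrying a genomic rescue transgene of HA-tagged KDM5, and were precipitated with anti-HA. Paraquat, a herbicide that generates reactive oxygen species, was fed at 20 mM in 5% sucrose for 6 hours, and control flies had 5% sucrose for the same time. Wildtype w1118 flies, for which the labels give no feeding regime, gave 1 library with an antibody against KDM5 and 1 library against H3K4me3, neither with a replicate. KDM5 was therefore measured through a tagged transgene in one genotype and through an antibody in another. Whole animals mix many cell types, so fewer bound cells and less binding per cell cannot be told apart. The labels do not state if libraries 1 and 2 of a treatment are separate fly collections, and p-values measure only the spread between these libraries, which may be technical.

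KDM5, also known as Lid in Drosophila, is a histone demethylase that removes methyl groups from lysine 4 of histone H3, and H3K4me3 marks the start sites of active genes. Chromosome 4, the dot chromosome, is packaged with heterochromatin proteins such as HP1a along much of its length, yet it carries many expressed genes, which are bound by POF, a protein specific to this chromosome. The Het sequences are assembled stretches of pericentromeric heterochromatin that were assigned to a chromosome arm but not joined to it. They are rich in transposon remnants and other repeats, where short reads can map to several places.

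Each list gives for every peak its position, its pileup (the number of overlapping ChIP fragments at the summit) and its fold enrichment over the local background, all as the authors' peak caller made them. The number of fragments is scaled differently between lists, so pileups were ranked within a list, and a percentile of 100 marks the highest pileup of that list. The lists held 7403 and 4853 peaks in paraquat libraries 1 and 2, 5886 and 4919 in control libraries 1 and 2, 8948 for wildtype KDM5 and 7287 for H3K4me3. The lists carry no read totals, which leaves the depth unknown, and all intervals below are exact 95% intervals that cover counting error only.

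Peaks on chromosome 4 numbered 54 and 19 in paraquat libraries 1 and 2 and 40 and 13 in control libraries 1 and 2. The wildtype KDM5 list had 107 and the H3K4me3 list 24. Both number 1 libraries were high and both number 2 libraries low, in either condition. As a share of its list this was 0.729% and 0.392% in paraquat libraries 1 and 2 (mean 0.560 ± 0.239%, SD, n = 2), against 0.680% and 0.264% in control libraries 1 and 2 (mean 0.472 ± 0.294%, SD, n = 2). Paraquat exceeded control by 0.089 percentage points (exact permutation test over libraries, two-sided, p = 0.667). The smallest p that 2 against 2 libraries allow is 0.333. Within replicate numbers the paraquat library exceeded its control by 0.050 points (number 1) and 0.127 points (number 2), both less than the gap between the numbers. Leaving out paraquat library 1 turned the difference to -0.080 points and leaving out control library 2 turned it to -0.119 points.

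The number 1 excess on chromosome 4 sat in one place. The last 39 of the 132 sites on the chromosome, where a site is a stretch covered by overlapping peaks of any of the 6 lists, lay between 1282722 and 1351746, a span of 69.0 kb that is called the end block here. A gap of 45.9 kb without a peak separates it from the other 93 sites, which span 1174 kb between 62943 and 1236777. The block was delimited after its positions had been seen, and 3 gaps inside the rest of the chromosome (81.7, 60.5 and 52.6 kb) are longer.

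The end block held 38 peaks in paraquat library 1 and 0 in paraquat library 2, against 33 in control library 1 and 0 in control library 2. Wildtype KDM5 had 18 peaks there and H3K4me3 had 16. The number 2 libraries were empty under both treatments. Per megabase of span, paraquat library 1 had 551 peaks (390 to 756) and control library 1 had 478 (329 to 671). A count of 0 in either number 2 library allows up to 53.4. The bounds of the block were set from these same peaks, which raises its density. These densities and intervals therefore describe the block and cannot test the gap between the numbers. Outside the block the number 2 library had more peaks than number 1 in each condition. There were 16 and 19 peaks in paraquat libraries 1 and 2 and 7 and 13 in control libraries 1 and 2. Wildtype KDM5 had 89 peaks in the rest and H3K4me3 had 8. Without the block, chromosome 4 took 0.217% and 0.392% of the paraquat lists and 0.120% and 0.264% of the control lists, a paraquat excess of 0.112 points (exact permutation test, two-sided, p = 0.667).

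**Figure D1:**
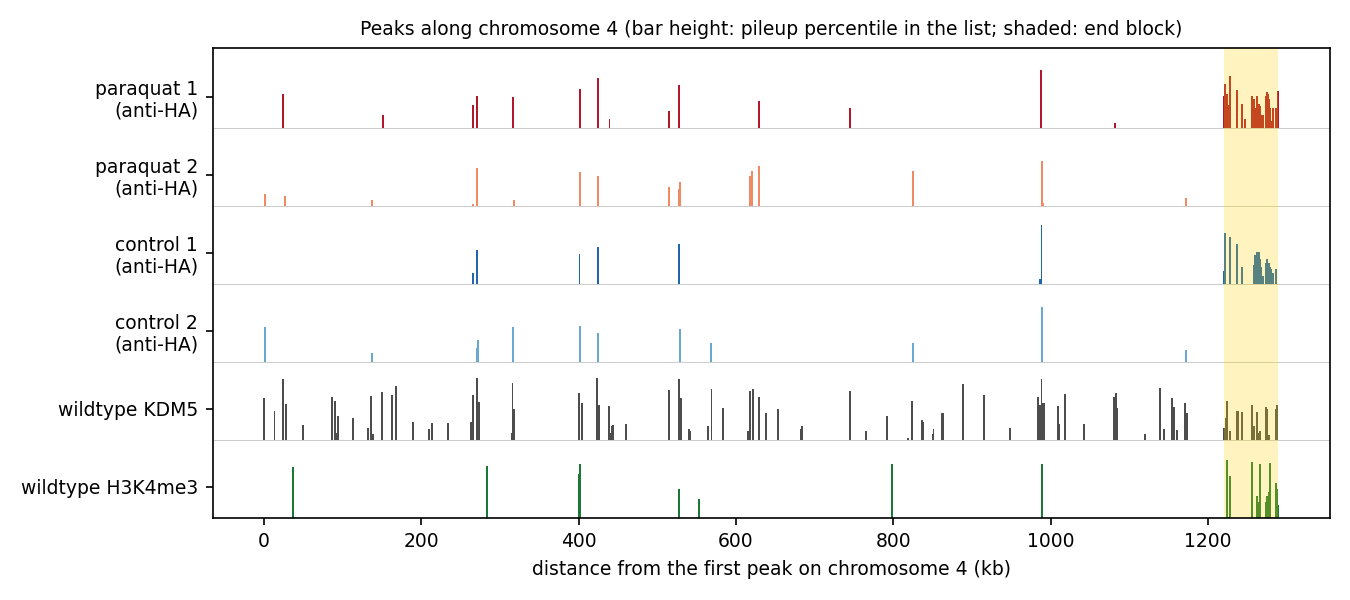
Peaks of the 6 lists along chromosome 4, plotted by distance in kb from the first peak on the chromosome, with 1 row per list; bar height is the peak's pileup percentile within its list, narrow bars are widened to be visible, and the end block is shaded. Paraquat library 1 (38 peaks) and control library 1 (33 peaks) fill the block, where paraquat library 2 and control library 2 have 0.

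**Figure D2:**
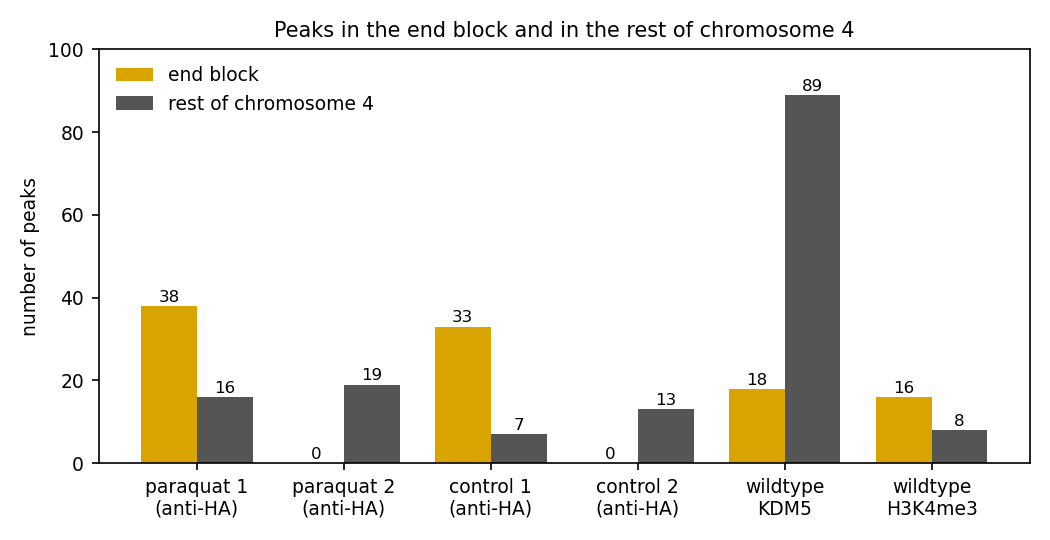
Number of peaks in the end block and in the rest of chromosome 4, with 1 pair of bars per list and the count above each bar. The block accounts for 38 of 54 peaks in paraquat library 1 and 33 of 40 in control library 1, but for 18 of 107 wildtype KDM5 peaks.

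Site by site, 23 sites of chromosome 4 were listed in both number 1 libraries and in neither number 2 library, and all 23 lay in the end block. The opposite pattern, both number 2 libraries and neither number 1 library, occurred at 4 sites, all in the rest and all under a wildtype KDM5 peak. Of the 23, 13 had a wildtype KDM5 peak and 9 an H3K4me3 peak. Genome-wide, 88.9% of 7537 regions merged from the 4 anti-HA lists alone had a wildtype KDM5 peak, and 48.6% an H3K4me3 peak. Of the 39 sites of the block, 20 held anti-HA peaks alone, with neither wildtype KDM5 nor H3K4me3, whereas 0 of the 93 other sites did. The genome-wide share of such sites is not given here. One such block site, chr4:1284293-1285167, had a pileup of 61 in paraquat library 1 (percentile 69.4) and 64 in control library 1 (percentile 81.5).

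The number 1 libraries stood apart elsewhere too. The unplaced sequences U and Uextra took 5.36% of the peaks of paraquat library 1 and 0.762% of paraquat library 2, against 5.69% of control library 1 and 0.630% of control library 2. These shares move with the end block, and their part in it was not tested. The local background recovered from pileup and fold equalled the lowest of its list at 33 of the 38 block peaks of paraquat library 1 and 27 of the 33 of control library 1, that is, at the lowest level the caller used in that list. Over the whole lists that was so at 56.6% and 58.6% of peaks, and in the rest of the chromosome at 3 of 16 and 3 of 7 peaks of the same libraries.

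Pileups in the block were moderate. The strongest site there in paraquat library 1 was chr4:1289889-1290390, with pileups of 71 in paraquat library 1 (percentile 82.2), 60 in control library 1 (percentile 75.5), 74.0 for wildtype KDM5 (percentile 14.2) and 45 for H3K4me3 (percentile 67). It ranked high in the anti-HA lists and low in the list of the antibody against KDM5 itself. The median percentile over the block was 36.5 in paraquat library 1 and 27.5 in control library 1, 44.5 for wildtype KDM5 and 38.2 for H3K4me3. At 8 block sites all 4 lists that reach the block overlapped, among them chr4:1337605-1339143, where 11 peaks merged into 1 site, and chr4:1328028-1328622, where H3K4me3 reached percentile 86.2 and wildtype KDM5 percentile 14.8. The highest H3K4me3 pileup of chromosome 4, 65 (percentile 93.2), lay at chr4:1286447-1287062, with a wildtype KDM5 peak at percentile 62.7 and a paraquat library 1 peak at percentile 54.0.

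Agreement between the 4 anti-HA libraries was scored on anti-HA regions, made by merging the peaks of those 4 lists alone. Of 70 such regions on chromosome 4, 5 were present in all 4 libraries (7.14%, interval 2.36 to 15.9%), against 44.7% of the 7537 regions of the whole genome. All 5 were among the 30 regions outside the end block (16.7%), and 0 of the 40 block regions qualified. Presence in both number 1 libraries and in neither number 2 library was seen at 26 of the 70 regions, 25 of them in the block, with 9.18% genome-wide. Both number 2 libraries and neither number 1 library shared 4 regions (0.876% genome-wide). Both paraquat libraries and neither control library shared 2 of the 70 regions (1.91% genome-wide), and the reverse was seen at 0 (0.133% genome-wide).

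The 5 regions in all 4 anti-HA libraries were the most widely shared on the chromosome, and each also had a wildtype KDM5 peak. At chr4:1050538-1051770 the pileup was 83 and 55 in paraquat libraries 1 and 2, 78 and 62 in control libraries 1 and 2, 339 for wildtype KDM5 and 54 for H3K4me3. It ranked high in each list, at percentiles 92.3 and 71.3 (paraquat), 94.0 and 87.2 (control), 96.7 (wildtype KDM5) and 86.2 (H3K4me3). Paraquat and control values overlapped. No other site of chromosome 4 had a higher pileup in any of the 4 anti-HA lists, whereas in the wildtype KDM5 list other sites were higher, up to 349.

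Sites chr4:463491-464588 and chr4:590511-591586 were also found in all 6 lists. At chr4:463491-464588 pileups were 57 and 47 in paraquat libraries 1 and 2 and 48 and 46 in control libraries 1 and 2, with H3K4me3 at percentile 86.2. At chr4:590511-591586 they were 60 and 42 in the paraquat and 54 and 44 in the control libraries, with wildtype KDM5 at percentile 97.3 and H3K4me3 at 45.7. Paraquat and control values overlapped at both.

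The other 2 regions in all 4 anti-HA libraries had no H3K4me3 peak, although wildtype KDM5 was near its maximum there. These were chr4:333498-334839, with the highest wildtype KDM5 pileup of the chromosome (349, percentile 99.2), and chr4:486323-487572 (345, percentile 98.6). Anti-HA pileups at chr4:333498-334839 were 50 and 50 in paraquat libraries 1 and 2 and 50 and 36 in control libraries 1 and 2. At chr4:486323-487572 they were 69 and 45 in the paraquat and 52 and 42 in the control libraries. One more site outside the block, chr4:328622-329764, was in 4 lists, namely both paraquat libraries, control library 1 and wildtype KDM5, with no H3K4me3.

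Sites split by condition were few. Both paraquat libraries and neither control library listed chr4:576802-579634, with pileups of 39 and 40 in paraquat libraries 1 and 2 (percentiles 26.6 and 30.8), and chr4:691739-692301, with 46 and 51 (percentiles 42.8 and 63.1). Both lay under a wildtype KDM5 peak, at percentiles 79.6 and 69.0, and the anti-HA peaks stood in the middle or lower part of their lists. With 2 libraries a condition, an exact permutation test of these sites could not pass a threshold of 0.05.

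At an overlap of 1 bp a lower share of peaks met H3K4me3 on chromosome 4 than on the arms in each of the 5 KDM5 lists, a difference that did not pass the adjusted threshold. The share of KDM5 peaks that overlapped an H3K4me3 peak by at least 1 bp was 31.5% and 15.8% in paraquat libraries 1 and 2, 40.0% and 23.1% in control libraries 1 and 2, and 13.1% for wildtype KDM5. On the large arms it was 52.3% and 66.9% (paraquat), 66.1% and 68.8% (control) and 37.7% (wildtype KDM5). Over whole lists the share was 51.5% and 66.4%, 64.7% and 68.3%, and 38.2%, in the same order. The mean difference of chromosome 4 from the arms was -33.7 ± 13.7 percentage points (SD, n = 5 libraries, lower in 5 of 5; exact sign-flip permutation test, two-sided, p = 0.062, adjusted p = 0.0938 over 6 region comparisons). That unadjusted p is the smallest which 5 libraries allow. All 5 shares were taken against the same H3K4me3 library, so the 5 differences are not independent, as the test assumes. When peaks had to cover 50% of each other, the mean difference was -17.5 points and lower in 4 of 5 (exact sign-flip permutation, p = 0.125), with wildtype KDM5 at 6.54% on chromosome 4 and 6.36% on the arms. Median widths were 738 and 842 bp there for wildtype KDM5 and 210 and 281 bp for H3K4me3. Such unequal widths leave few pairs able to meet this rule, so the 2 wildtype shares cannot tell if the difference is absent.

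In the wildtype lists this overlap was uneven along the chromosome. In the rest, 3 of 89 wildtype KDM5 peaks had an H3K4me3 peak (3.37%, interval 0.70 to 9.54%), whereas 11 of 18 did in the block (61.1%, interval 35.7 to 82.7%). These come from 1 library each and have no replicate check. In the rest, the summit of a wildtype KDM5 peak lay a median of 40276 bp from the nearest H3K4me3 summit, against 139.5 bp in the block and 1841 bp on the arms. The H3K4me3 list was thin on the rest of the chromosome, with 6.82 peaks per Mb (2.94 to 13.4) against 38.8 on the arms, while wildtype KDM5 had 75.8 per Mb (60.9 to 93.3) against 71.0 on the arms.

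The few H3K4me3 peaks of the rest were not weak within their list. Their median percentile was 82.9 (8 peaks), against 38.2 in the block (16 peaks) and 45.7 on the arms. Of the 8, 4 lay at sites with no KDM5 peak in any list. These were chr4:99706-99812, chr4:346841-346940, chr4:615323-615467 and chr4:860983-861271, at percentiles 82.1, 83.7, 30.5 and 86.2. Their widths were 107, 100, 145 and 289 bp, against a median of 281 bp on the arms, and their folds of 2.19, 2.05, 2.60 and 2.42 were near the arms' median of 2.53. In the other direction, 16 of the 24 H3K4me3 peaks of chromosome 4 had a wildtype KDM5 peak (66.7%, interval 44.7 to 84.4%), against 59.7% over the whole list and 88.4% on the arms. In the end block 16 of 16 H3K4me3 peaks met an anti-HA peak, against 57.8% over the whole list and 85.4% on the arms. Each did so through paraquat library 1 and 12 of them also through control library 1. On the arms these 2 libraries met 84.1% and 78.4% of the H3K4me3 peaks.

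**Figure D3:**
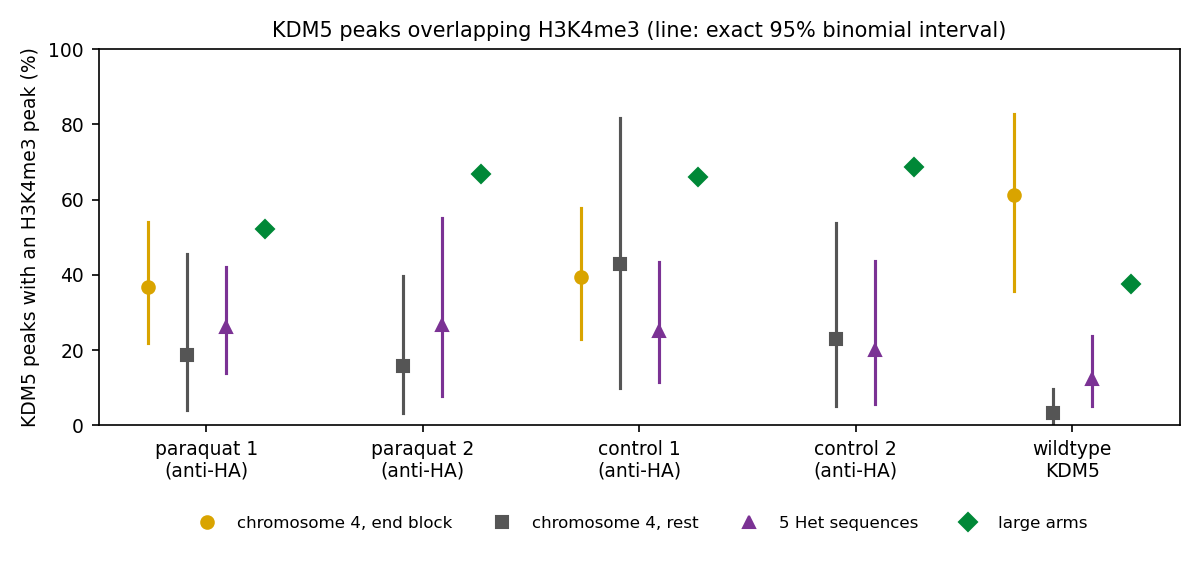
Share of KDM5 peaks that overlap an H3K4me3 peak by at least 1 bp, for each of the 5 KDM5 lists, with the exact 95% binomial interval as a line (too short to see for the arms). Chromosome 4 outside the block reaches 3.37% for wildtype KDM5 and the block 61.1%; paraquat library 2 and control library 2 have no block peaks and so no block symbol.

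Wildtype KDM5 and anti-HA met at different rates in the 2 stretches. Outside the block each anti-HA peak lay under a wildtype KDM5 peak, that is 16 of 16 and 19 of 19 in paraquat libraries 1 and 2 and 7 of 7 and 13 of 13 in control libraries 1 and 2. Inside it, 18 of 38 did in paraquat library 1 and 17 of 33 in control library 1. Over whole lists the shares were 91.8% and 98% for paraquat libraries 1 and 2 and 92.9% and 98.9% for control libraries 1 and 2. Seen from the wildtype list, 26 of 89 KDM5 peaks of the rest met any anti-HA peak (29.2%) and 16 of 18 of the block, with 55.4% over the whole list. Wildtype KDM5 alone accounted for 63 of the 93 sites of the rest and 2 of the 39 sites of the block.

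Ranked by pileup within their lists, chromosome 4 peaks lay below the arms in 5 of 6 libraries. The median percentile was 37.5 and 30.8 in paraquat libraries 1 and 2, 30.7 and 34.8 in control libraries 1 and 2, 45.5 for wildtype KDM5 and 50.5 for H3K4me3. On the arms it was 52.1 and 50.8, 51.1 and 49.0, 51.2 and 45.7 in the same order. The mean difference was -11.7 ± 9.67 percentile points (SD, n = 6; exact sign-flip permutation test, two-sided, p = 0.062, adjusted p = 0.0938). Without the end block the mean difference was -0.84 points (exact sign-flip permutation, p = 0.969), with medians of 43.7 and 30.8 in the paraquat libraries, 53.4 and 34.8 in the control libraries, 48.8 for wildtype KDM5 and 82.9 for H3K4me3. Control library 1 and H3K4me3 then lay above the arms, H3K4me3 with 8 peaks, and the other 4 lists below them. Ranked by fold enrichment in place of pileup, chromosome 4 lay below the arms in 6 of 6 lists, by a mean of -17.3 points (exact sign-flip permutation, p = 0.03125, adjusted p = 0.062), H3K4me3 at 55.1 on chromosome 4 and 59.0 on the arms.

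Peaks on chromosome 4 were narrower than on the arms in 6 of 6 lists. Median widths were 216.5 and 154 bp in paraquat libraries 1 and 2, 215 and 149 bp in control libraries 1 and 2, 738 bp for wildtype KDM5 and 210 bp for H3K4me3. On the arms they were 393 and 329, 330 and 308, 842 and 281 bp in the same order. The mean log2 ratio of chromosome 4 to the arms was -0.71 ± 0.36 (SD, n = 6; exact sign-flip permutation test, two-sided, p = 0.03125, the smallest that 6 libraries allow, adjusted p = 0.0938). Without the block it was -0.49 (exact sign-flip permutation, p = 0.156), and peaks were narrower in 4 of 6 lists. Control library 1 had a median of 429 bp there against 330 bp on the arms, and wildtype KDM5 949 bp against 842 bp. The median local background of wildtype KDM5 peaks in the rest was 41.0 fragments against 31.3 on the arms, with the list's lowest background at 3.37% of peaks against 45.1% on the arms.

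**Figure D4:**
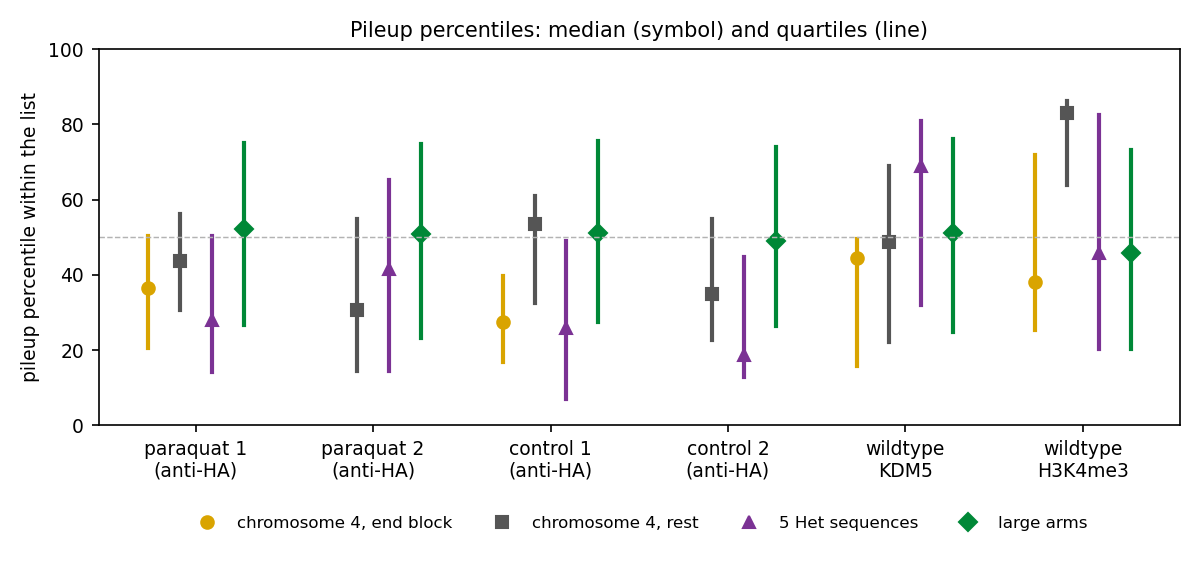
Pileup percentile within each list for peaks of the end block, the rest of chromosome 4, the 5 Het sequences and the large arms; symbols are medians, lines run from the lower to the upper quartile, and the dashed line marks the middle of a list. The block lies below the arms in paraquat library 1 (36.5 against 52.1) and control library 1 (27.5 against 51.1), and Het peaks lie above the arms for wildtype KDM5 (69.0 against 51.2), which by fold enrichment turns to 51.3 against 52.0.

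The Het sequences held 42 and 15 peaks in paraquat libraries 1 and 2, 32 and 20 in control libraries 1 and 2, 57 for wildtype KDM5 and 68 for H3K4me3. As a share of the list this was 0.567% and 0.309% for paraquat (mean 0.438 ± 0.183%, SD, n = 2), against 0.544% and 0.407% for control (mean 0.475 ± 0.097%, SD, n = 2). The ranges overlapped, and paraquat minus control was -0.037 points (exact permutation test, two-sided, p = 1). Within numbers the sign differed, at 0.024 points for number 1 and -0.097 points for number 2. Leaving out paraquat library 2 or control library 1 turned the difference positive, to 0.092 and 0.032 points.

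Merging the 6 lists gave 142 Het sites, of which 108 were in 1 list only (76.1%) and 10 in 4 or more lists (7.04%). On chromosome 4, 80 of 132 sites were in 1 list (60.6%) and 14 in 4 or more (10.6%). Genome-wide these shares were 56.5% and 31%. The single-list sites were of other kinds on the Het sequences than on chromosome 4. Of the 108 on the Het sequences 53 were in the H3K4me3 list, 32 in the wildtype KDM5 list and 23 in an anti-HA list, whereas of the 80 on chromosome 4 these numbers were 4, 65 and 11. The 6995 single-list sites of the whole genome were not split in this way. H3K4me3 peaks that met no KDM5 list numbered 2739 of 7287 over the whole list, 53 of 68 on Het and 4 of 24 on chromosome 4.

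H3K4me3 and KDM5 met less often in the Het sequences than on the arms. The share of KDM5 peaks with an H3K4me3 peak was 26.2% and 26.7% in paraquat libraries 1 and 2, 25.0% and 20.0% in control libraries 1 and 2, and 12.3% for wildtype KDM5. Over whole lists it was 51.5% and 66.4%, 64.7% and 68.3%, and 38.2%, in the same order. The mean difference from the arms was -36.3 ± 10.2 percentage points (SD, n = 5, lower in 5 of 5; exact sign-flip permutation test, two-sided, p = 0.062, adjusted p = 0.0938), again the smallest p the libraries allow. These 5 differences also share 1 H3K4me3 library and are not independent. Of 68 H3K4me3 peaks 8 had a wildtype KDM5 peak (11.8%, interval 5.22 to 21.9%), against 59.7% over the whole list and 88.4% on the arms. The summits of the 68 lay a median of 74561 bp from the nearest wildtype KDM5 summit, against 121 bp on the arms. Of the 4347 H3K4me3 peaks with wildtype KDM5 in the whole list, 4079 lay on the arms, 16 on chromosome 4 and 8 on Het. Few were left for the unplaced U and Uextra, which held 2581 of the 7287 H3K4me3 peaks (35.4%). This low share of H3K4me3 peaks was therefore not particular to Het. The share of KDM5 peaks with H3K4me3 was not compared with U and Uextra. Het H3K4me3 peaks stood on a local background of 18.1 fragments (median), against 14.4 on the arms. Its part in the result was not tested.

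By pileup, median ranks over the pooled Het sequences were above the arms for the KDM5 antibody and below them for the HA tag. Wildtype KDM5 peaks had a median percentile of 69.0 on Het and 51.2 on the arms, and a median width of 1149 bp on Het and 842 bp on the arms. On 2RHet, with 20 of the 57 wildtype KDM5 peaks, the median percentile was 37.5, below the arms. On the other Het sequences it ran from 68.4 (2LHet) to 77.0 (XHet). Anti-HA peaks ranked at 28.0 and 41.6 in paraquat libraries 1 and 2 and at 25.8 and 18.7 in control libraries 1 and 2, below the arms in 4 of 4. H3K4me3 had the same median, 45.7, on Het and on the arms. Ranked by fold enrichment, wildtype KDM5 turned to 51.3 on Het and 52.0 on the arms, H3K4me3 had 30.6 and 59.0, and all 6 lists were lower on Het, by a mean of -23.8 points (exact sign-flip permutation, p = 0.03125, adjusted p = 0.062). Over the 6 lists the mean difference was -11.9 ± 18.4 points (SD, n = 6; exact sign-flip permutation test, two-sided, p = 0.188, adjusted p = 0.188). The log2 width ratio was -0.64 ± 0.57 (SD, n = 6; exact sign-flip permutation, p = 0.0938, adjusted p = 0.112), with wildtype KDM5 the 1 list that was wider on Het.

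Anti-HA peaks on the Het sequences had wildtype KDM5 beneath them in number 2 libraries more than in number 1 libraries. The counts were 21 of 42 and 14 of 15 in paraquat libraries 1 and 2 and 11 of 32 and 19 of 20 in control libraries 1 and 2. Over whole lists the shares were 91.8% and 98% for paraquat libraries 1 and 2 and 92.9% and 98.9% for control libraries 1 and 2. Number 2 was thus higher there too. The Het shares of number 2 (93.3% and 95%) were near those of their lists, and those of number 1 (50% and 34.4%) were below. Of 61 anti-HA regions, 8 were in all 4 libraries (13.1%, interval 5.84 to 24.2%), against 44.7% genome-wide, and 9 were in both number 1 libraries alone, against 9.18% genome-wide. None of the 61 was in both paraquat libraries and neither control library (1.91% genome-wide) or the reverse (0.133% genome-wide), shares at which a count of 0 is near the background.

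The 5 Het sequences were unequal. Their sites numbered 50 on 2RHet, 48 on 3LHet, 29 on 3RHet, 10 on XHet and 5 on 2LHet, over spans from first to last site of 3149, 2422, 2420, 156 and 337 kb. XHet had the highest density of peaks and the highest share of shared sites of the 5. It had 57.5 and 44.7 peaks per Mb of span in paraquat libraries 1 and 2, 38.4 and 51.1 in control libraries 1 and 2, 32 for wildtype KDM5 and 44.7 for H3K4me3. These values are of the order of the large arms, where the same lists had 58.1, 40.2, 46.1, 40.8, 71.0 and 38.8. On XHet 4 of 10 sites were in 4 or more lists, against 0 of 5 on 2LHet, 1 of 50 on 2RHet, 3 of 48 on 3LHet and 2 of 29 on 3RHet. Genome-wide the share was 31%. Of the XHet anti-HA regions 4 of 9 were in all 4 libraries (44.4%), near the 44.7% genome-wide. XHet peaks are few, from 5 to 9 a list, and no test was run between the sequences.

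Those XHet sites lay close together. XHet:60361-62285 merged 14 peaks and was in all 6 lists, with pileups of 56 and 43 in paraquat libraries 1 and 2, 48 and 51 in control libraries 1 and 2, 305 for wildtype KDM5 and 39 for H3K4me3. XHet:76121-77200 was in all 6 lists as well, with anti-HA pileups of 49 and 50 (paraquat) and 44 and 48 (control). There both paraquat pileups exceeded both control pileups, but the percentiles, 48.6 and 61.0 for paraquat and 36.7 and 62.8 for control, overlapped. The neighbour XHet:74579-75614 had 53 and 54 in the paraquat and 49 and 55 in the control libraries and no H3K4me3 peak. XHet:84713-85580 was missing from control library 1. At XHet:60361-62285 and XHet:74579-75614 paraquat and control pileups overlapped.

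Elsewhere, 2RHet:470309-471874 was the 1 further Het site in all 6 lists. Its pileups were 52 and 47 in paraquat libraries 1 and 2, 55 and 51 in control libraries 1 and 2, 336 for wildtype KDM5 (percentile 95.6) and 45 for H3K4me3 (percentile 67). It was the highest peak of 2RHet in each of the 5 KDM5 lists. On 2LHet no site reached 4 lists, and the most shared, 2LHet:34682-35835, was in paraquat library 1, control library 2 and wildtype KDM5.

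On 3LHet the number 1 libraries again stood apart, at 8 sites listed in both of them and in neither number 2 library. The clearest was 3LHet:772875-773772, with pileups of 95 in paraquat library 1 (percentile 96.9) and 90 in control library 1 (percentile 98.0), an H3K4me3 peak at percentile 67, and no wildtype KDM5 peak. Its peak summits in these lists spread over 762 bp, against 23 and 52 bp at the neighbours named next. Its neighbours 3LHet:774193-774859 and 3LHet:774947-775437 had 67 and 68 in paraquat library 1, 60 and 59 in control library 1, and H3K4me3 pileups of 100 and 104 at percentiles 97.8 and 98.2. The folds of those H3K4me3 peaks were 1.43 and 1.83, under the list's arm median of 2.53, so high pileups sat on a high local background. At 3LHet:701426-703021, in all 4 anti-HA libraries, pileups were 78 and 35 in paraquat libraries 1 and 2 and 76 and 35 in control libraries 1 and 2, split by number and alike by treatment. At 3LHet:2397610-2399824, by contrast, paraquat library 2 was the highest of the anti-HA lists with 55, paraquat library 1 had 50, control library 2 had 39 and control library 1 had no peak.

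The highest anti-HA pileups of the 6 sequences in paraquat library 2 and control library 1 lay at a site with no peak in wildtype flies. At 3RHet:2136585-2136765 pileups were 91 and 105 in paraquat libraries 1 and 2 and 116 and 53 in control libraries 1 and 2. Their percentiles were 95.7 and 99.4 (paraquat) and 99.7 and 74.1 (control), and folds over the local background were 6.25 and 7.38 (paraquat) and 7.46 and 4.01 (control). The site is 181 bp wide, with neither a wildtype KDM5 nor an H3K4me3 peak. Paraquat values lay between the 2 control values. It was the only site in 4 or more lists on these 6 sequences without a wildtype KDM5 peak.

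Single-list H3K4me3 peaks took some of the highest ranks on the Het sequences. 3RHet:1523966-1524412 had a pileup of 123 (percentile 99.1, fold 4.40), 2RHet:370064-370556 had 84 (percentile 95.8, fold 5.58) and 2LHet:368469-368620 had 117 (percentile 98.8, fold 1.76). The first 2 combined a high pileup with a high fold, and the third did not. Of the 68 Het H3K4me3 peaks 11 stood in the upper 10% of their list. So did 721 of 7287 over the whole list, 264 of 4612 on the arms and 443 of 2581 on the unplaced U and Uextra. The unplaced sequences thus had a share like that of Het. An anti-HA peak of any library met 11 of the 68 (16.2%), against 57.8% over the whole list and 85.4% on the arms. On chromosome 4, 1 of the 24 H3K4me3 peaks stood in the upper 10%.

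**Figure D5:**
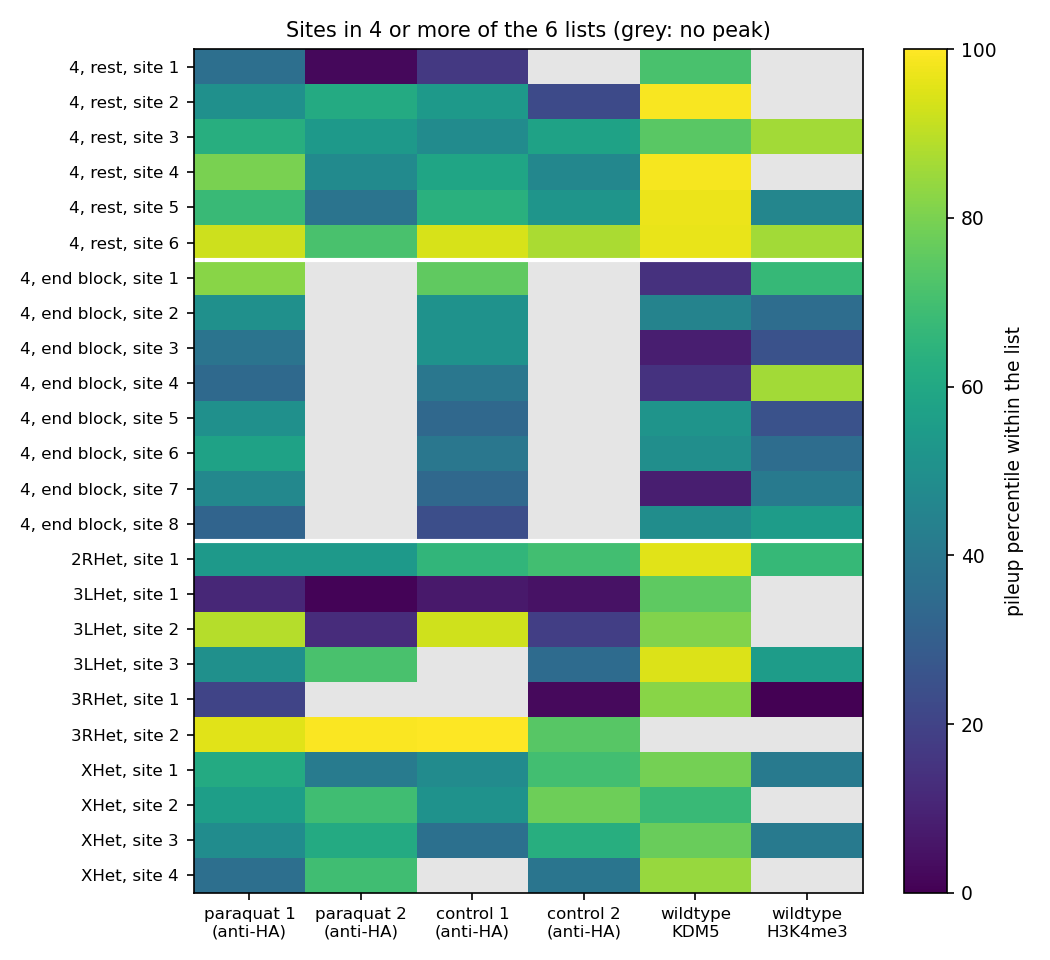
Pileup percentile within each list at the 24 sites found in 4 or more of the 6 lists, with rows in order along each sequence and columns as the lists; grey marks a list with no peak there and white lines part the rest of chromosome 4, the end block and the Het sequences. The 8 block sites are empty in paraquat library 2 and control library 2, and the second 3RHet site is high in the anti-HA lists and empty in both wildtype lists.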

How the data were processed

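One headerless peak list per ChIP library was used (6 lists), and the 3 inputs were not analysed here. Per the submitters' processing notes, CASAVA 1.4, Bowtie and MACS2 were used with build dm3. The sources used here do not give the versions or options of the aligner and the caller, how reads with several matches were treated, or which input served for which list. Each deposited row holds a signal (the pileup at the summit), a −log10 p-value, a fold enrichment ratio and a −log10 q-value, which the authors' caller computed from 1 library. Pileups of the wildtype KDM5 list are not whole numbers and its shortest peak is 206 bp against 100 bp elsewhere, so its widths and pileups were compared only within that list.

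Positions were turned to counting from 1. Percentiles are average ranks of the pileup within a list. The local background is (pileup + 1)/fold − 1, called equal to a list's lowest within 0.1%. Peaks overlapping by at least 1 bp were merged into sites (6 lists) and into anti-HA regions (4 lists). Peaks per Mb use the span from first to last site. Libraries were the unit of every test. Region differences were tested with an exact sign-flip permutation over libraries, adjusted by Benjamini-Hochberg over 6 comparisons, and paraquat against control with an exact permutation. Intervals are Clopper-Pearson for shares and exact Poisson for densities. Merging, overlap and permutation steps were tested on simulated data. Python 3.11.15, numpy 2.4.6, pandas 2.3.3, scipy 1.17.1 and matplotlib 3.10.9 were used.

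The members and the lists of sites were chosen with earlier results of these data known. Sites eligible for naming were, on chromosome 4, those in all 4 anti-HA libraries, in 4 or more lists, among the 3 highest of a list, in both libraries of 1 condition alone, or with H3K4me3 alone, and on the Het sequences those in 3 or more lists or highest on their sequence in a list. Of these, the most shared and the highest are named. Genes and sequences are not given, because no genome or annotation of build dm3 was used here.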

Additional observations from a re-analysis of the deposited data

How the results depend on the processing

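Of 112 values under alternatives, 4 reversed in sign and 5 counts or shares moved. All 4 reversals come from leaving out 1 library in the paraquat minus control shares. The chromosome 4 difference ranged from -0.119 to 0.296 points over the 4 omissions, with -0.0804 points without paraquat library 1 and -0.119 points without control library 2. The Het difference ranged from -0.166 to 0.0922 points, with 0.0922 points without paraquat library 2 and 0.0316 points without control library 1. Requiring peaks to cover 50% of each other moved 4 values: anti-HA regions in all 4 libraries numbered 2 on chromosome 4 and 3 on the Het sequences, and the share of H3K4me3 peaks with wildtype KDM5 was 29.2% on chromosome 4 and 0% on Het, where wildtype KDM5 peaks are several times as wide as H3K4me3 peaks. Without both number 1 libraries, chosen after seeing the data, 9 chromosome 4 regions were in all libraries left; this count asks for fewer libraries. Some differences without an adjusted p under 0.05 kept their sign but changed by over 1.5 times. The chromosome 4 overlap of KDM5 with H3K4me3 was -17.5 points with 50% cover. The chromosome 4 rank was -0.84 points without the end block, a mean that includes 37.2 points from the 8 H3K4me3 peaks. The Het rank was -19.6 points by −log10 p, -17.8 points without wildtype KDM5 and -5.42 points without both number 1 libraries. The Het share difference was -0.0692 points at −log10 q of at least 2 and -0.0824 points at equal list lengths.

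The titles number the libraries 1 and 2, and number 1 libraries resembled each other more than libraries of 1 condition did, but the labels do not say that a number marks a shared batch. With the replicate number as a block, the paraquat differences were the same, 0.0885 points on chromosome 4 (p = 0.5) and -0.0369 points on Het (p = 1, both exact permutations within numbers, whose smallest p is 0.5). The region comparisons have no adjusted p under 0.05 in any setting run. Ranking by fold in place of pileup gave the largest rank differences, -17.3 percentile points on chromosome 4 and -23.8 on Het (exact sign-flip permutation, p = 0.03125 and adjusted p = 0.062 for both). Leaving out the end block was also chosen after seeing the data. Unknown depth, 13 to 107 chromosome 4 peaks a list and single wildtype libraries limit every comparison.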
